A study of Mus musculus with 5 samples.

Results

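The 34 genes described here encode the core autophagy machinery, the proteins that link it to its cargo, a pair of transcription factors that act on these genes, and membrane proteins and hydrolases of the lysosome. They were taken by name from the 36870 gene names on the array, and all 34 were found there, each well above background on all 5 arrays. Autophagy encloses cytoplasm in a double membrane, the autophagosome, which fuses with lysosomes where hydrolases degrade the contents. The ULK1 kinase complex starts the process, a phosphatidylinositol 3-kinase complex marks the membrane, lipid transfer by ATG2 and ATG9 lets it grow, and a conjugation system couples ATG8 proteins such as LC3 to it. In liver, autophagy supplies amino acids and lipids during fasting and removes damaged mitochondria and protein aggregates.

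The mice were BALB/c females aged 6 weeks, dosed intraperitoneally, and liver RNA was taken 6 hr later. One group received troglitazone (TGZ) at 300 mg/kg, one received 700 mg/kg buthionine sulfoximine (BSO) plus the same dose of TGZ, one received rosiglitazone (RGZ) at 300 mg/kg, one received 700 mg/kg BSO plus that dose of RGZ, and the vehicle group received neither. TGZ and RGZ are thiazolidinediones, agonists of the nuclear receptor PPAR-gamma, and share the thiazolidinedione ring; TGZ carries a chroman ring like that of vitamin E where RGZ carries a pyridine. BSO inhibits glutamate-cysteine ligase and so lowers glutathione. Each group was 1 pool of RNA from 6 animals on 1 array, no group received BSO alone, and the comparisons with vehicle all share the single vehicle array.

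Values are given as relative signal, the signal of a gene's brightest probe in multiples of the 75th percentile of its own array, and can be compared between arrays but not between genes. With 1 array per group there is no spread between replicates and no test. The intervals in brackets are 95% intervals that cover the measurement error of the spots only, not differences between animals. That error comes from the error model of the software that read the arrays, not from repeated spots. Its smallest value among the members was 0.144 on the log2 scale on each of the 5 arrays. The widths of the intervals are thus largely set by that model. A member is called higher or lower here when it differs at least 2-fold. The hepatocyte marker Alb, which encodes serum albumin, lay at the 99.99th percentile of probes on every array, Ttr at 99.7 to 99.9 and Apoa1 at 98.5 to 99.0, also as percentiles. In RNA of whole liver, fewer cells of a type and less RNA per cell cannot be told apart.

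With TGZ, Ulk1, Atg2a, Atg12, Map1lc3b and Ctsl were 2.72-fold to 3.02-fold higher than with vehicle, and Atg101 was 2.21-fold lower. Those 6 of 34 members are 17.6% of them, while 19.5% of all 21317 measured genes passed the same threshold, 10.1% upward and 9.48% downward. The members' share was near that of the array with this processing, but the background depends on it. With normexp background correction those 6 members were again called, beside 5.15% of all genes higher and 4.25% lower. With BSO plus TGZ, set against the same vehicle array, Ulk1, Atg2a, Atg12, Map1lc3b and Ctsl were 2.15-fold to 2.83-fold higher and Atg101 was 2.02-fold lower, against a background of 14.2% of 21430 genes, 8.31% upward and 5.89% downward. With RGZ none of the 34 members was called, where 3.31% of 21350 genes were (1.65% upward and 1.66% downward), and with BSO plus RGZ Atg13, Wipi1 and Map1lc3b were 2.05-fold to 2.19-fold higher, which is 8.82% of the members beside 3.05% of 21210 genes higher and 3.78% lower, or 6.82% in all.

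At a lower threshold of 1.5-fold, with the same processing, the members' share was close to that of all genes or below it. With TGZ, 8 members were then higher and 5 lower, the additions being Atg13, Atg14 and Tfe3 above vehicle and Atg9a, Atg3, Atg5 and Atg10 below it. Those 13 are 38.2% of the members, while 37.4% of all genes passed, 18.5% upward and 18.9% downward. With BSO plus TGZ the counts were 6 higher and 4 lower, beside 15.7% and 15.4% of all genes, or 29.4% of the members beside 31% of genes in all. With RGZ 3 members were higher (Atg13, Wipi1 and Map1lc3b) and 0 lower, beside 5.96% and 7.56%, 13.5% in all. With BSO plus RGZ 5 were higher, Tfe3 and Ctsl being added to those 3, and 0 lower, beside 9.83% and 12.9%, 22.7% in all.

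Over all 34 members the median log2 difference from vehicle was 0.20 with TGZ, 0.11 with BSO plus TGZ, 0.08 with RGZ and 0.16 with BSO plus RGZ, while the median of all genes was 0.01, -0.03, -0.03 and -0.05 in the same order. With no filter on dim probes the median of all genes with TGZ was 0.23, above that of the members. On both arrays with TGZ, 12 members lay above the other 3 arrays and 9 lay below them. These are 35.3% and 26.5% of the members, beside 31.1% and 27.9% of the 18483 genes detected on all arrays. On both arrays with RGZ, 7 members lay above the other 3 arrays and 3 lay below, or 20.6% and 8.82%, beside 16.5% and 22.3% of those genes.

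The level that is read as no change depends on the scaling. When arrays were scaled to the spiked-in control RNAs in place of their 75th percentile, the median of all genes with TGZ moved by -0.45 and that of the members became -0.26. Ulk1, Atg2a and Ctsl were then the 3 members called higher, and Atg101, Atg9a, Atg3, Atg5 and Atg10 the 5 called lower, beside 5.63% and 20.1% of all genes. The split of all genes with that scaling was 6.50% higher and 9.17% lower for BSO plus TGZ, 2.14% higher and 1.21% lower for RGZ, and 4.28% higher and 2.72% lower for BSO plus RGZ, where Tfe3 joined the 3 members called higher. Relative to the median of all genes, with TGZ the members' median was 0.18 with the spike-in scaling and 0.19 with the percentile scaling. A change of scaling moves all genes of an array alike, so this difference could hardly change between them. It was 0.07 with normexp background correction, -0.03 with no filter on dim probes and 0.32 with the mean over a gene's probes.

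**Figure D1:**
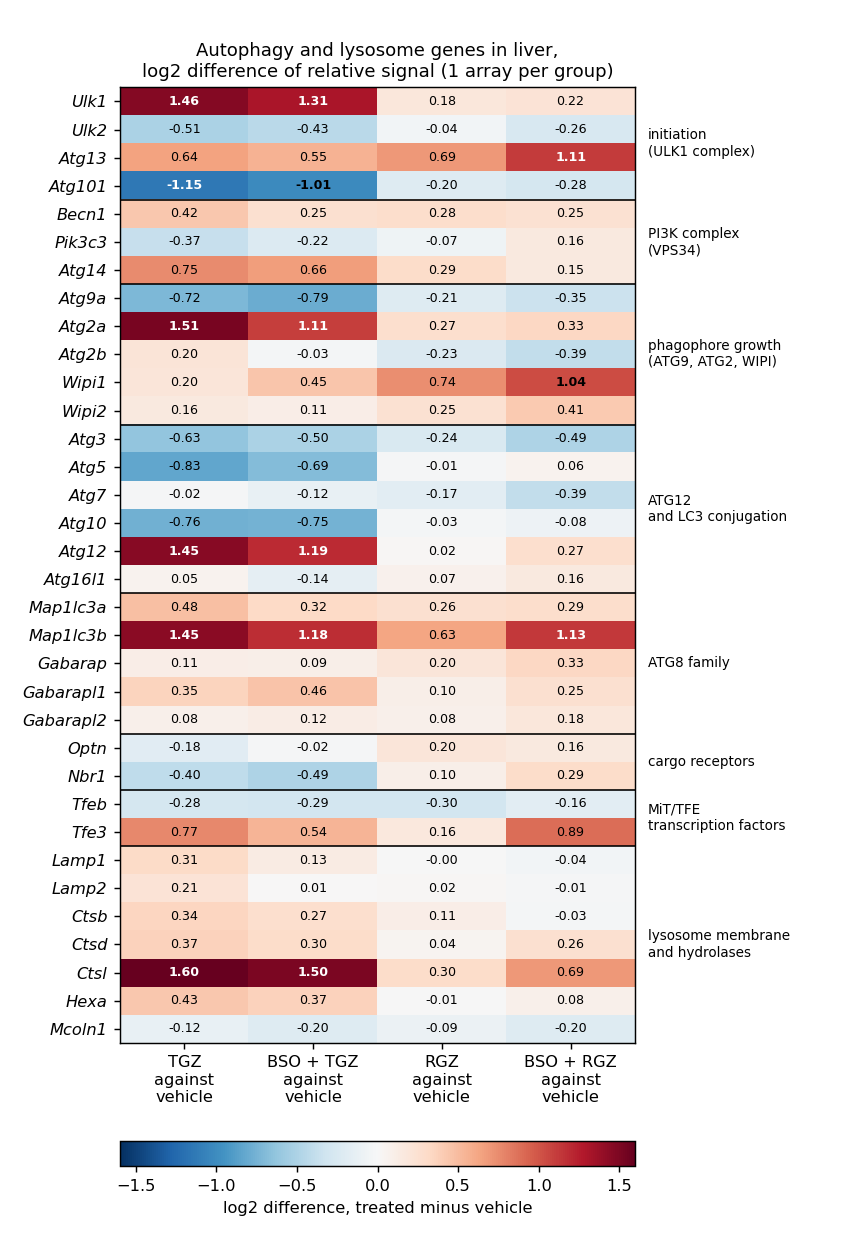
Log2 difference of relative signal from vehicle (colour and printed number) for the 34 members in rows, grouped by role, and the 4 treated groups in columns, with 1 array per group; differences of at least 2-fold are in bold. The left pair of columns, TGZ and BSO plus TGZ, holds the 6 members called with TGZ, while bold values in the right pair, RGZ and BSO plus RGZ, are those of Atg13, Wipi1 and Map1lc3b with BSO plus RGZ.

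Levels of markers of other liver cells differed between the same arrays. The 8 neutrophil markers had summed relative signals of 141 with TGZ, 142 with BSO plus TGZ, 26.0 with RGZ and 34.2 with BSO plus RGZ, against 12.3 with vehicle, and 4 of the 8 were called higher with TGZ (S100a8, S100a9, Retnlg and, as a bound, Ngp). Of the others, Ly6g and Elane had log2 differences of -0.70 and -0.10. The 9 Kupffer cell and macrophage markers, all well above background on every array, summed to 65.3, 88.2, 78.0 and 69.7 in the same order, against 78.7 with vehicle, and with TGZ only Cd68 among them was called. Cd68 was higher, Marco was at 0.05 on the log2 scale, and Timd4, Vsig4, Lyz2, Adgre1, Cd5l, Csf1r and Clec4f lay at -0.97 to -0.14. The median of the 9 was -0.38. The 7 hepatocyte markers summed to 9294 with TGZ, 8117 with BSO plus TGZ, 6786 with RGZ and 6767 with BSO plus RGZ, against 7535 with vehicle. Summed signals of the 5 endothelial markers were 33.5, 46.4, 54.5 and 49.9 in the same order, against 57.3 with vehicle, but these genes went opposite ways with TGZ, Lyve1 being 13.4-fold higher and Kdr and Clec4g 3.84-fold and 2.10-fold lower. Those of the 5 cholangiocyte markers were 13.3, 10.7, 5.26 and 4.25, against 6.10 with vehicle, and with TGZ Sox9 was 13.4-fold and Spp1 1.66-fold higher and Krt19 1.63-fold lower. A sum adds signals of different probes and so is led by the brightest of them. The cholangiocyte markers Krt7 and Epcam and the lymphocyte markers Cd8a and Cd79a were not well above background on any array, which leaves 3 of 5 and 4 of 6 markers of those lists. The part of these cells in the members' differences was not tested.

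The promoters of members that differed are printed beside their values because the MiT/TFE transcription factors, among them the members Tfeb and Tfe3, are known to bind a short palindrome, the E-box, in promoters of autophagy and lysosome genes. RefSeq promoters of the GRCm38.p6 build, which run from 250 bases before to 50 bases after a gene's start, were available for 28 of the 34 members and are printed 5′ to 3′ on the gene's strand, with each CACGTG in capitals. This palindrome reads the same on both strands. It occurred in promoters of 8 of the 28 members (28.6%), namely Atg14, Atg3, Atg5, Atg7, Lamp1, Ctsd, Ctsl and Mcoln1, and in 8.09% of all 27025 genes in the table. The longer form TCACGTG, searched on both strands and overlapping the first, occurred in 6 of the 28 (21.4%) and in 4.29% of all genes. Of the 7 members called in any comparison that have a promoter entry, 1 (Ctsl) held CACGTG and 0 held TCACGTG, while 7 of the 21 other members held CACGTG. A match is a description of these letters and not a bound site.

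**Figure D2:**
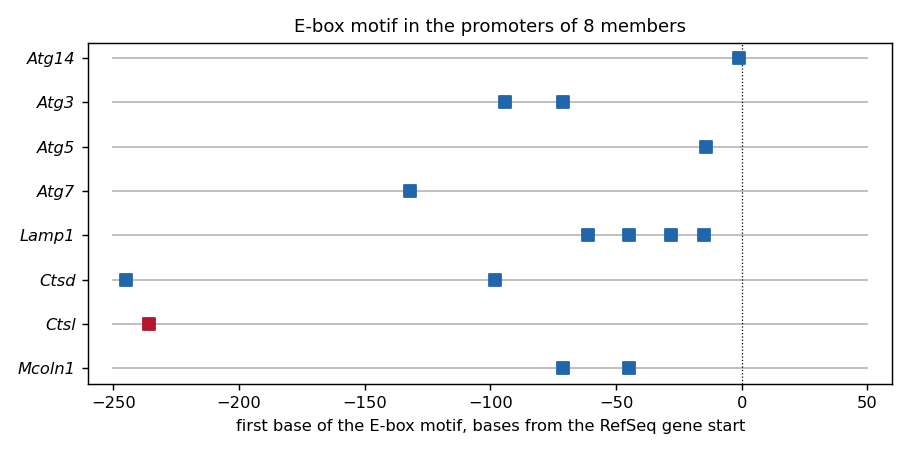
Position of each E-box motif (squares, first base of the motif in bases from the RefSeq gene start, dotted line) in the promoters of the 8 members that hold one; grey lines span the 300 bases searched. Lamp1 has 4 copies between positions -61 and -15, while the copy of Ctsl, the only gene of the 8 called in any comparison (red), lies at position -236.

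Among the genes of the initiation complex, Ulk1 was higher with TGZ while Ulk2 and Atg101 lay lower. Ulk1 encodes the kinase of the complex. Its probe lies on the minus strand at chr5:111213514-111213573 of mm9, the build of the array's annotation. Relative signals of Ulk1 were 72.3 with TGZ, 65.1 with BSO plus TGZ, 29.8 with RGZ and 30.6 with BSO plus RGZ, against 26.3 with vehicle. Both arrays with TGZ were far above the other 3, which lay close together. The difference from vehicle was 2.75-fold with TGZ (2.09 to 3.63) and 2.48-fold with BSO plus TGZ (1.88 to 3.27). A second Ulk1 probe gave log2 differences of 2.16 with TGZ, 1.75 with BSO plus TGZ, 0.85 with RGZ and 0.82 with BSO plus RGZ. The promoter of Ulk1 holds no E-box.
Ulk1 promoter (GRCm38.p6, chr5:110810032-110810331, minus strand): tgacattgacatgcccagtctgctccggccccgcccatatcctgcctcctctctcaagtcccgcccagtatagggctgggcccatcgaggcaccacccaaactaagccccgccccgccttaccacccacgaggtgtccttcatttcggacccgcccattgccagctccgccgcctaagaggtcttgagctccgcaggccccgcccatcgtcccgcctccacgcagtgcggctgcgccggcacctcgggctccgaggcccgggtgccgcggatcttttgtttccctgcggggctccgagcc

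Atg101, which encodes the subunit that stabilises ATG13 in the complex, showed the opposite order (probe at chr15:101121149-101121208, plus strand, mm9). Its relative signals were 6.90 with TGZ, 7.56 with BSO plus TGZ, 13.3 with RGZ and 12.6 with BSO plus RGZ, against 15.3 with vehicle. It was lowest on both arrays with TGZ, 2.21-fold (1.68 to 2.92) and 2.02-fold (1.53 to 2.66) below vehicle. Ulk2, a paralog of Ulk1, had log2 differences of -0.51 with TGZ and -0.43 with BSO plus TGZ, both with intervals below 0, and of -0.04 with RGZ and -0.26 with BSO plus RGZ. Ulk1 and Atg101 kept their directions with TGZ under every scaling, at 1.00 and -1.60 on the log2 scale with the spike-in controls.
Atg101 promoter (GRCm38.p6, chr15:101284051-101284350, plus strand): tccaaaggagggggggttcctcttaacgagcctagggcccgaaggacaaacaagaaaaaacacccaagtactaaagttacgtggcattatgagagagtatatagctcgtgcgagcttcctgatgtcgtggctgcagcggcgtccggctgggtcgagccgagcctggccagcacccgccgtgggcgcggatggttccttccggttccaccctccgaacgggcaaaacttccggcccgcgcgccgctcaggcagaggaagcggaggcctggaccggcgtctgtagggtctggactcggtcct

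Atg13, the scaffold that joins the kinase to the rest of the complex, was highest with BSO plus RGZ (probe at chr2:91514791-91514850, minus strand, mm9). Relative signals were 26.0 with TGZ, 24.5 with BSO plus TGZ, 27.0 with RGZ and 36.1 with BSO plus RGZ, against 16.7 with vehicle. Vehicle was the lowest array and BSO plus RGZ the highest, 2.16-fold above it (1.64 to 2.85), while TGZ was 1.56-fold (1.18 to 2.05) and RGZ 1.61-fold (1.22 to 2.13) above vehicle. The call with BSO plus RGZ rests on this probe. A second probe, annotated to a cDNA clone, was 1.04 above vehicle on the log2 scale with TGZ and at -0.59 with BSO plus RGZ, and the mean of both probes gave 0.26 for BSO plus RGZ.
Atg13 promoter (GRCm38.p6, chr2:91710543-91710842, minus strand): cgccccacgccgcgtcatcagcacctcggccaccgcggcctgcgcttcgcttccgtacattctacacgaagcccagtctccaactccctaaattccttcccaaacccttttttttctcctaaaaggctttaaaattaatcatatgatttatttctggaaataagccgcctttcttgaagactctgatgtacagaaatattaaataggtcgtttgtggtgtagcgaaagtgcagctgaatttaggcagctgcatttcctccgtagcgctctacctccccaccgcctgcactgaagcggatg

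The 3 genes of the phosphatidylinositol 3-kinase complex differed less than 2-fold in every comparison. Atg14, the subunit that directs the complex to sites of autophagosome formation, had relative signals of 4.15 with TGZ, 3.90 with BSO plus TGZ, 3.02 with RGZ and 2.74 with BSO plus RGZ, against 2.46 with vehicle. It was thus 1.69-fold above vehicle with TGZ (1.28 to 2.22) and 1.58-fold above it with BSO plus TGZ (1.20 to 2.09). Becn1, the scaffold subunit, lay between 1.39 and 1.57 on the treated arrays, against 1.17 with vehicle. Pik3c3, the catalytic subunit, was lowest with TGZ at 0.324 and highest with BSO plus RGZ at 0.467, against 0.417 with vehicle.

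Of the genes for growth of the autophagosome membrane, Atg2a was higher with TGZ and Wipi1 with BSO plus RGZ. Atg2a encodes a lipid transfer protein that feeds the growing membrane (probe at chr19:6262231-6262290, plus strand, mm9). Its relative signals were 37.4 with TGZ, 28.2 with BSO plus TGZ, 15.8 with RGZ and 16.4 with BSO plus RGZ, against 13.1 with vehicle. Both arrays with TGZ stood above the other 3, by 2.86-fold from vehicle with TGZ (2.17 to 3.77) and 2.15-fold with BSO plus TGZ (1.63 to 2.84). Its paralog Atg2b stayed within 0.657 to 0.992 on all 5 arrays, with 0.992 with TGZ against 0.862 with vehicle.
Atg2a promoter (GRCm38.p6, chr19:6241418-6241717, plus strand): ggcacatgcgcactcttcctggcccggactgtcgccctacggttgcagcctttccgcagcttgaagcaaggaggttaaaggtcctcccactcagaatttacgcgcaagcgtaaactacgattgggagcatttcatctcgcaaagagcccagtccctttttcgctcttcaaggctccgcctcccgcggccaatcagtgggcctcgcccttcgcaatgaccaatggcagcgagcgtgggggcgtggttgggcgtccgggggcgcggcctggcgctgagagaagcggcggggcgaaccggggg

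Wipi1 encodes a protein that binds the lipid made by the kinase complex (probe at chr11:109434884-109434943, minus strand, mm9). Relative signals were 3.77 with TGZ, 4.47 with BSO plus TGZ, 5.49 with RGZ and 6.74 with BSO plus RGZ, against 3.29 with vehicle. The 2 arrays with RGZ were the highest, 1.67-fold above vehicle with RGZ (1.27 to 2.20) and 2.05-fold above it with BSO plus RGZ (1.55 to 2.70). The 3 Wipi1 probes on the array gave log2 differences of 0.74 to 0.91 with RGZ and 1.04 to 1.28 with BSO plus RGZ, but of -0.19 to 0.64 with TGZ. Wipi2, a paralog, lay within 1.5-fold of vehicle throughout. Atg9a, the lipid scramblase of the membrane, was 1.64-fold below vehicle with TGZ (1.24 to 2.18) and 1.73-fold below it with BSO plus TGZ (1.31 to 2.30), with relative signals of 0.662 and 0.627, against 1.09 with vehicle.
Wipi1 promoter (GRCm38.p6, chr11:109611340-109611639, minus strand): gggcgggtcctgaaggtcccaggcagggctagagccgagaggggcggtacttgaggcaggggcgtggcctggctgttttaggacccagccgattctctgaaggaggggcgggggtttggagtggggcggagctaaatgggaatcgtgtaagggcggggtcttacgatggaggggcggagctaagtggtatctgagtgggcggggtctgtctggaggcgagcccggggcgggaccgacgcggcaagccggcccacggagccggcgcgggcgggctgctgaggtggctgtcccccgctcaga

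Of the 6 conjugation genes only Atg12 was called against vehicle, with TGZ and with BSO plus TGZ. Atg12 encodes the ubiquitin-like protein that is coupled to ATG5. Relative signals of Atg12 were 27.9 with TGZ, 23.3 with BSO plus TGZ, 10.3 with RGZ and 12.3 with BSO plus RGZ, against 10.2 with vehicle. It was 2.74-fold above vehicle with TGZ (2.07 to 3.61) and 2.28-fold above it with BSO plus TGZ (1.73 to 3.01), while the array with RGZ was level with vehicle.

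Atg5, Atg10 and Atg3 lay under vehicle with TGZ by less than 2-fold. Atg5, the conjugation target of Atg12, had relative signals of 10.2 with TGZ, 11.2 with BSO plus TGZ, 17.9 with RGZ and 18.8 with BSO plus RGZ, against 18.1 with vehicle, a 1.78-fold lower value with TGZ (1.35 to 2.35). Atg10, the enzyme that couples the pair, had 0.216 with TGZ, 0.218 with BSO plus TGZ, 0.358 with RGZ and 0.347 with BSO plus RGZ, against 0.366 with vehicle, 1.70-fold lower with TGZ (1.24 to 2.32). Atg3, which couples LC3 to lipid, was 1.54-fold lower with TGZ (1.17 to 2.04). On their brightest probes Atg5 and Atg10 were lowest on both arrays with TGZ, where Atg12 was highest, while Atg3 was level between BSO plus TGZ and BSO plus RGZ. Atg7, the activating enzyme of both conjugations, and Atg16l1, which localises the conjugate, stayed within 1.5-fold of vehicle on every array.

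In the ATG8 family, Map1lc3b was the only one of 5 members to be called in any comparison. It encodes the LC3 protein used as the common marker of autophagosomes (probe at chr8:124120787-124120846, plus strand, mm9). Its relative signals were 88.8 with TGZ, 73.7 with BSO plus TGZ, 50.6 with RGZ and 71.4 with BSO plus RGZ, against 32.6 with vehicle. All 4 treated arrays were above vehicle, by 2.72-fold with TGZ (2.06 to 3.59), 2.26-fold with BSO plus TGZ (1.71 to 2.98), 1.55-fold with RGZ (1.18 to 2.05) and 2.19-fold with BSO plus RGZ (1.66 to 2.89). The array with RGZ alone was the lowest of the 4.
Map1lc3b promoter (GRCm38.p6, chr8:121590188-121590487, plus strand): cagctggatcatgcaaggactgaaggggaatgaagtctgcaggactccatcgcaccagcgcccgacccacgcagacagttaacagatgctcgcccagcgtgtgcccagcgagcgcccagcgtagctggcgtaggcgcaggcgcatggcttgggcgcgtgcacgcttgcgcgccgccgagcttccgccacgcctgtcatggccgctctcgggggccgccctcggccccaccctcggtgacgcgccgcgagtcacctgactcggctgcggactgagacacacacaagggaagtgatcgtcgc

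A second Map1lc3b probe, to the same transcript, gave log2 differences of 1.45, 1.19, 0.71 and 1.17 from vehicle in that order of groups. Another Map1lc3b probe, annotated to a different transcript and with relative signals of 0.0789 to 0.865, gave 2.02 with TGZ and 1.61 with BSO plus TGZ, but -0.49 with RGZ and -1.43 with BSO plus RGZ. The mean over the 3 probes put BSO plus RGZ at 0.29, so the call with BSO plus RGZ holds on the first pair of probes and not on the last. Map1lc3a, Gabarap, Gabarapl1 and Gabarapl2 had log2 differences of 0.08 to 0.48 with TGZ and of 0.18 to 0.33 with BSO plus RGZ, on the brightest probe of each. A second Gabarap probe gave 1.25 with TGZ and 1.15 with BSO plus RGZ, and 1 Gabarapl2 probe gave -0.54 with RGZ and -0.74 with BSO plus RGZ. On their brightest probes all 5 family members lay above vehicle on every treated array with the percentile scaling, while with the spike-in scaling 3 of the 5 lay below it with TGZ and 2 of the 5 with BSO plus TGZ. With normexp background correction 1 of the 5 lay below vehicle with TGZ.

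Neither cargo receptor was called. Optn, which links ubiquitin-tagged mitochondria and bacteria to LC3, had log2 differences between -0.18 and 0.20 from vehicle on its brightest probe. Its other probe gave 0.33 with TGZ and 0.30 with BSO plus TGZ. Nbr1, a receptor for ubiquitin-tagged aggregates and peroxisomes, had relative signals of 0.849 with TGZ, 0.798 with BSO plus TGZ, 1.20 with RGZ and 1.37 with BSO plus RGZ, against 1.12 with vehicle. On this brightest probe of Nbr1 the arrays with TGZ were the lowest and those with RGZ the highest. A second Nbr1 probe lay at -0.05 on the log2 scale for BSO plus RGZ against vehicle.

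The transcription factor Tfe3 and its paralog Tfeb, which drive autophagy and lysosome genes when mTORC1 is inactive, did not follow each other. Relative signals of Tfe3 were 28.0 with TGZ, 24.0 with BSO plus TGZ, 18.4 with RGZ and 30.5 with BSO plus RGZ, against 16.5 with vehicle. It was 1.70-fold above vehicle with TGZ (1.29 to 2.24) and 1.85-fold above it with BSO plus RGZ (1.41 to 2.45), with RGZ alone near vehicle. Tfeb lay between 1.20 and 1.31 on the 4 treated arrays, against 1.47 with vehicle, and 1 of its 3 other probes was lower, at -1.34 on the log2 scale with TGZ and -0.80 with BSO plus TGZ. Both factors are regulated mainly by phosphorylation and location, which an array does not measure.

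Of the 7 lysosome members, Ctsl stood apart with TGZ and the other 6 were within 1.5-fold of vehicle on every array, as read from the brightest probe of each. Ctsl encodes cathepsin L, a cysteine protease of the lysosome (probe at chr13:64465287-64465346, minus strand, mm9). Relative signals were 439 with TGZ, 410 with BSO plus TGZ, 178 with RGZ and 234 with BSO plus RGZ, against 145 with vehicle. The arrays with TGZ were 3.02-fold (2.29 to 3.99) and 2.83-fold (2.14 to 3.73) above vehicle, the largest differences among the 34 members in these 2 comparisons, and BSO plus RGZ was 1.61-fold above it (1.22 to 2.13). A second Ctsl probe was well above background only on the 2 arrays with TGZ, where its log2 difference from vehicle was at least 2.58 and, with BSO, at least 2.75.
Ctsl promoter (GRCm38.p6, chr13:64370471-64370770, minus strand): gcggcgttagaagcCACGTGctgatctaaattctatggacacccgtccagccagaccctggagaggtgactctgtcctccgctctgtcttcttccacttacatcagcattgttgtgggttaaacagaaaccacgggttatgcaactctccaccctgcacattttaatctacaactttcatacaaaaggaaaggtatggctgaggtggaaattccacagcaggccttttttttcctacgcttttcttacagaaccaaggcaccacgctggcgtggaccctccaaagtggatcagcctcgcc

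The proteases Ctsb and Ctsd and the beta-hexosaminidase subunit Hexa had log2 differences of 0.34, 0.37 and 0.43 with TGZ and of -0.03, 0.26 and 0.08 with BSO plus RGZ. Lamp1 and Lamp2, the most abundant glycoproteins of the lysosomal membrane, had 0.31 and 0.21 with TGZ, and the calcium channel gene Mcoln1 had -0.12. A further Lamp2 probe gave 0.69 with TGZ and 0.89 with BSO plus TGZ. With the spike-in scaling, 6 of the 7 lysosome members lay below vehicle with TGZ, Ctsl being the exception. Lamp1 and Mcoln1 are shown as members with several copies of the E-box and no call. Ctsd and Atg3 also hold 2 copies each without a call, and their promoters are not printed. Relative signals of Atg3 were 14.8 with TGZ against 22.8 with vehicle. Lamp1 had relative signals of 345 with TGZ, 304 with BSO plus TGZ, 278 with RGZ and 271 with BSO plus RGZ, against 278 with vehicle. Mcoln1 had 12.8, 12.1, 13.1 and 12.1 in that order, against 13.9 with vehicle.
Lamp1 promoter (GRCm38.p6, chr8:13158911-13159210, plus strand): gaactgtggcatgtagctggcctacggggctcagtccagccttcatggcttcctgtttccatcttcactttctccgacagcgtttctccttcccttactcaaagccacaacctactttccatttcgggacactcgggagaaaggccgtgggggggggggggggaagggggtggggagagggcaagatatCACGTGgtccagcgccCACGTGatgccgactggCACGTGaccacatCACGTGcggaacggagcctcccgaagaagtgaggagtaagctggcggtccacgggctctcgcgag
Mcoln1 promoter (GRCm38.p6, chr8:3500269-3500568, plus strand): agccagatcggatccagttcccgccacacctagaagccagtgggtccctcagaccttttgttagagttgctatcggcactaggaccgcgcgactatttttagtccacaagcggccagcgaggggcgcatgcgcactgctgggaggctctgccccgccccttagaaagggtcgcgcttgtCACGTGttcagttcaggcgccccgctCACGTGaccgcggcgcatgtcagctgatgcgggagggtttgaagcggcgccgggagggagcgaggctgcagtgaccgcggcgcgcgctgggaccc

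**Figure D3:**
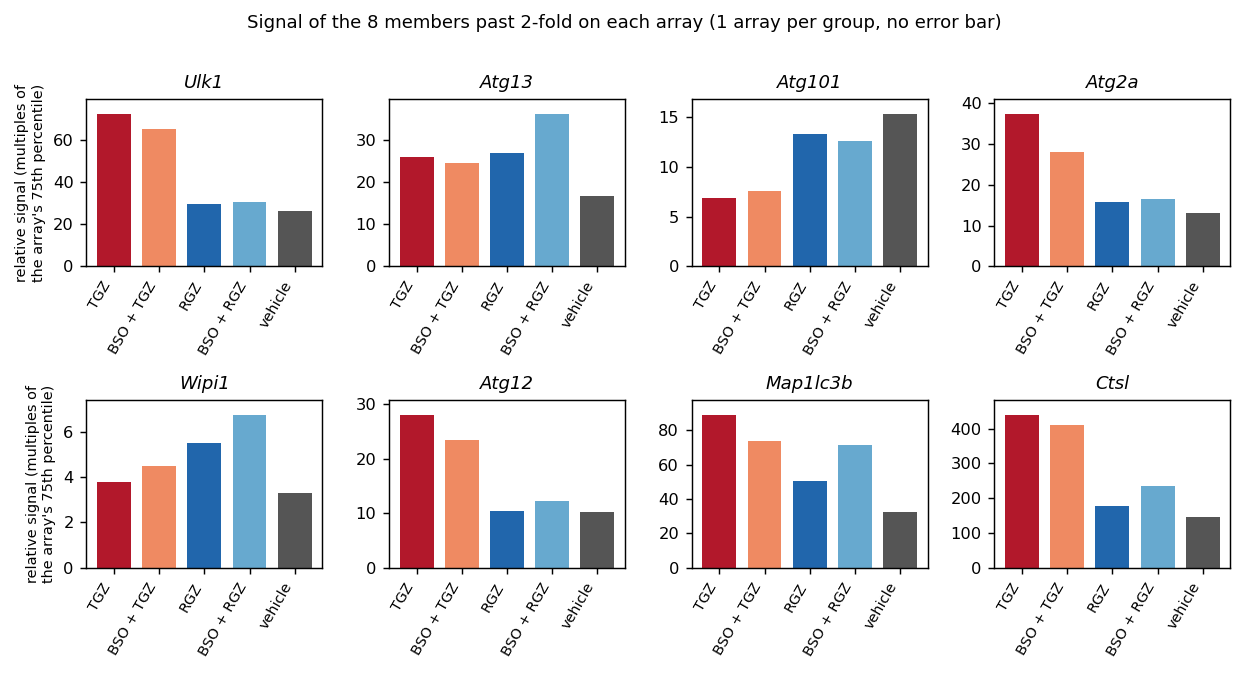
Relative signal (multiples of the array's 75th percentile, linear axes from 0) of the 8 members called in any comparison, 1 bar per array, in the order TGZ, BSO plus TGZ, RGZ, BSO plus RGZ and vehicle; there is 1 array per group and so no error bar. Ulk1, Atg2a, Atg12 and Ctsl are high on both arrays with TGZ, Atg101 is low there, and Wipi1 and Atg13 are highest with BSO plus RGZ.

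Several probes were present for 21 of the members, and probes of 1 gene can match different transcripts. Of 68 member probes, 60 were well above background on all 5 arrays and 4 on none. Atg101, Atg2a and Atg12 had 1 probe each, so their calls could not be checked on another. Ulk1 and Wipi1 gave the same direction on each of their probes wherever the gene was called. Atg13 and Map1lc3b did not with BSO plus RGZ, each through 1 probe. Among members that were not called, 1 Atg2b probe gave 0.46 with BSO plus RGZ where the brightest gave -0.39, and 1 Atg16l1 probe gave -0.42 where the brightest gave 0.16.

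**Figure D4:**
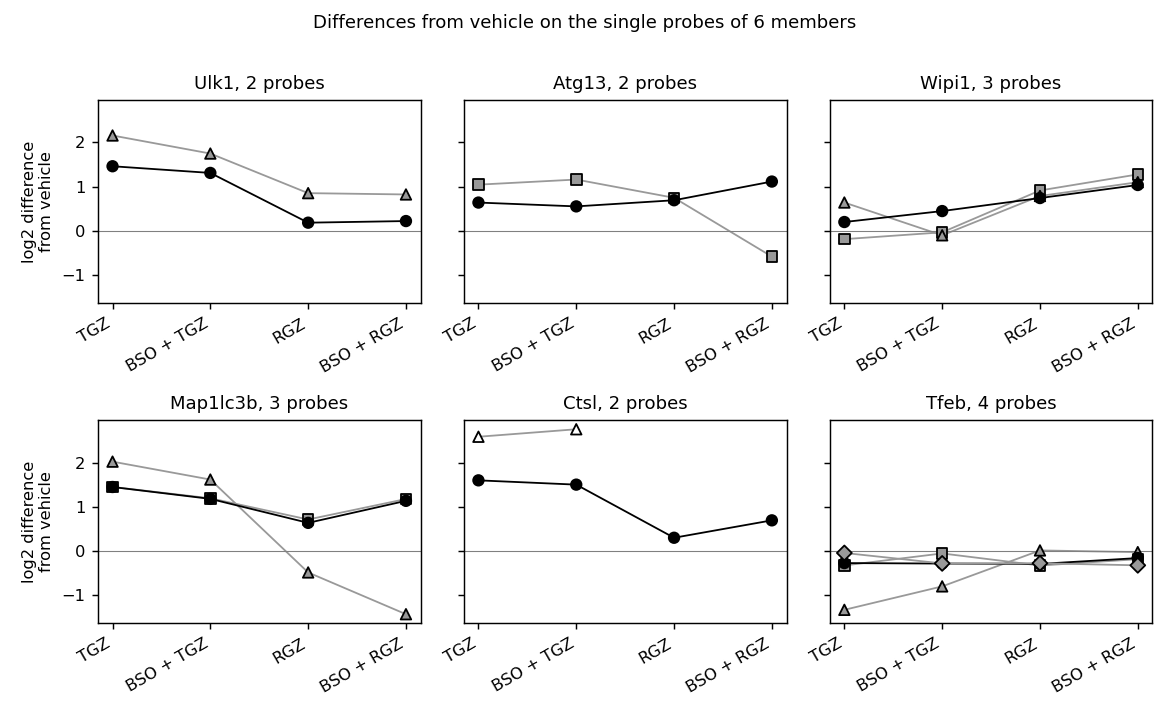
Log2 difference from vehicle of each probe of 6 members in the 4 treated groups; black circles are the brightest probe, which stands for the gene, grey symbols are its other probes, and open symbols are lower bounds where vehicle was not well above background. The last Map1lc3b probe and the second Atg13 probe lie below 0 with BSO plus RGZ, at -1.43 and -0.59, where the main probes lie at 1.13 and 1.11.

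TGZ and RGZ were compared directly at their matched dose and time, once without and once with BSO, which makes 2 pairs of arrays that share none. Ulk1, Atg2a, Atg12 and Ctsl were 2.37-fold to 2.70-fold higher with TGZ than with RGZ, and no member was 2-fold lower. These 4 are among 9.22% of 21511 genes that were called higher, with 8.41% called lower and 17.6% called in either direction. With BSO on both sides, Ulk1 was 2.13-fold higher with TGZ (1.61 to 2.81), where 13.6% of all genes were called in either direction, 8.31% upward and 5.26% downward. Ctsl, Atg12 and Atg2a were 1.75-fold (1.33 to 2.31), 1.90-fold (1.44 to 2.50) and 1.72-fold (1.30 to 2.26) higher in that pair.

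In the other direction, Atg101 was 1.92-fold lower with TGZ than with RGZ (1.46 to 2.54) and 1.66-fold lower with BSO on both sides (1.26 to 2.19). Atg5 was 1.76-fold lower (1.33 to 2.32) and 1.68-fold lower (1.27 to 2.21) in the same pairs, and Atg10 1.66-fold lower (1.22 to 2.26) and 1.59-fold lower (1.17 to 2.16). With BSO on both sides the lower Atg10 value rests on its brightest probe, since a second one gave a log2 difference of 0.10. At 1.5-fold, 6 members were higher and 3 lower with TGZ than with RGZ, beside 19.3% and 17% of all genes, 36.3% in all. With BSO on both sides the counts were 4 and 5, beside 17.1% and 14%, 31.1% in all. Over the 34 members the differences of the 2 pairs had a Pearson correlation of 0.888 and a Spearman correlation of 0.872 across genes, which are not independent replicates. The sign was the same for 31 of the 34 members (91.2%), and for 80.2% of all 20796 genes measured in both pairs, whose correlation was 0.857.

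These calls depend on the scaling. With the spike-in scaling the median of all genes moved by -0.53 for TGZ against RGZ, no member was called higher and 7 were called lower, namely Ulk2, Atg101, Atg9a, Wipi1, Atg5, Atg10 and Nbr1. Ulk1, Atg2a, Atg12 and Ctsl were then 0.73, 0.69, 0.88 and 0.75 higher with TGZ on the log2 scale. In that setting 4.49% of all genes were called higher and 21.5% lower. With BSO on both sides, 0 members were called higher and 3 lower (Atg101, Atg5 and Nbr1), beside 4.99% and 11.3% of all genes.

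Several members were close between the compounds without BSO, as read from the brightest probe of each. Gabarapl2 had a log2 difference of -0.00 between TGZ and RGZ, with an interval of -0.40 to 0.40, and Atg16l1 had -0.02 (-0.42 to 0.38). Mcoln1 differed by -0.03 (-0.43 to 0.37) and Atg13 by -0.05 (-0.45 to 0.35). Differences of up to 1.32-fold in either direction lie inside the interval of Gabarapl2. Tfeb differed by 0.02 (-0.38 to 0.42) on its brightest probe but by -1.34 on another. With BSO on both sides Atg13 lay at -0.56 on its brightest probe and at 1.74 on the other. In that pair Atg16l1 and Gabarapl2 lay at -0.30 and -0.05 on their brightest probes, and at up to 0.62 and 0.91 on others. For Map1lc3b the compounds differed by 0.81 without BSO (0.41 to 1.21) and by 0.04 with it (-0.36 to 0.44), on its brightest probe. Its signal was 0.50 higher with BSO plus RGZ than with RGZ and lay at -0.27 for BSO plus TGZ against TGZ on the log2 scale, while the probe to a different transcript gave 2.51 between the compounds without BSO and 3.05 with it. Tfe3 differed by 0.60 (0.20 to 1.00) and -0.35 (-0.75 to 0.05).

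**Figure D5:**
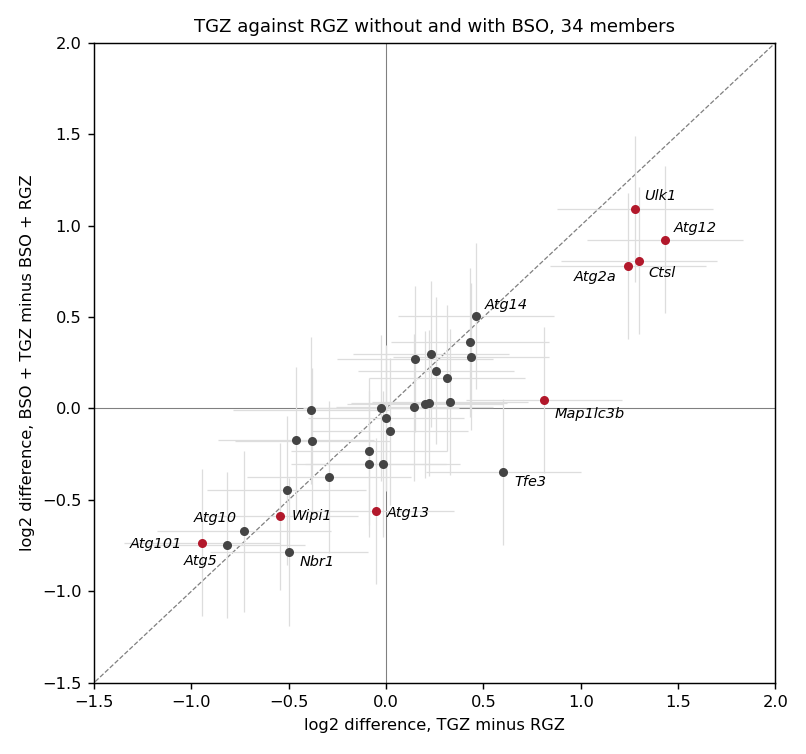
Log2 difference between TGZ and RGZ without BSO (x axis) and with BSO on both sides (y axis) for the 34 members; lines are 95% intervals of spot measurement error, red points are members called in any comparison, and the dashed line marks equal differences. Ulk1, Atg12, Ctsl and Atg2a lie at the upper right, Atg101, Atg5 and Atg10 at the lower left, and Map1lc3b and Tfe3 lie well below the dashed line.

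No member was called between BSO plus TGZ and TGZ alone, where 1.56% of 20862 genes were higher and 0.494% lower, 2.06% in all. On the brightest probe of each member, log2 differences of BSO plus TGZ against TGZ ran from -0.41 for Atg2a to 0.25 for Wipi1. None reached 1.5-fold, a threshold passed by 5.4% of all genes upward and 3.23% downward, 8.63% in all. Another Wipi1 probe gave -0.74, and only the interval of Atg2a lay below 0. BSO plus RGZ against RGZ gave differences of -0.25 for Atg3 to 0.73 for Tfe3, with no member at 2-fold, where 0.513% of 21261 genes were higher and 0.715% lower, 1.23% in all. Tfe3 was 1.66-fold higher (1.25 to 2.18) and was the only member past 1.5-fold, a threshold passed by 2.96% of all genes upward and 4.12% downward, 7.08% in all. Map1lc3b and Atg13 followed at 0.50 (0.10 to 0.90) and 0.42 (0.02 to 0.82), and these 3 were the members whose intervals lay above 0. The other probe of Atg13 and the probe of Map1lc3b to a different transcript gave -1.33 and -0.95 here. The 2 differences made by BSO had the same sign in 14 of the 34 members (41.2%) and in 49.3% of all genes, with a correlation of -0.16 across members and -0.01 across all genes. The interval for each member covers about 0.40 to either side on the log2 scale, a width largely set by the error model. Smaller differences lay inside this interval. It holds no spread between animals or pools, so with 1 array per group a larger difference is not thereby shown to come from BSO.

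No test for an excess of calls was made on 7 lists of 133 other genes of the pathway, which also held genes past 2-fold. Their median log2 differences with TGZ were -0.17 for other autophagy machinery, 0.32 for other cargo receptors, 0.20 for other lysosomal hydrolases, 0.16 for other lysosomal membrane proteins, 0.40 for the vacuolar ATPase, -0.03 for regulators of mTORC1 and -0.38 for other transcription factors, beside 0.01 for all genes. Among 22 other genes of the autophagy machinery, 4 were higher with TGZ and 2 lower. Plekhm1, an adaptor for the fusion of autophagosomes with lysosomes, was 3.31-fold higher (2.51 to 4.37), and Wdr45b, a relative of the WIPI proteins, 2.67-fold (2.02 to 3.53). Nrbf2, a subunit of the phosphatidylinositol 3-kinase complex, was 2.15-fold higher, as was Vmp1, an endoplasmic reticulum protein needed early in autophagosome formation, at 2.12-fold, and Rubcn, an inhibitor of that complex, was 3.40-fold lower (2.58 to 4.49), with Tmem41b, which acts with Vmp1, at 2.12-fold lower. With BSO plus TGZ, Wdr45b and Plekhm1 were called higher and Rubcn lower. With BSO plus RGZ the 1 gene called was Atg16l2, a paralog of Atg16l1, which was 2.49-fold higher (1.89 to 3.29).

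Among 10 other cargo receptors, Retreg1, a receptor for autophagy of the endoplasmic reticulum, had relative signals of 188 with TGZ, 139 with BSO plus TGZ, 5.43 with RGZ and 5.46 with BSO plus RGZ, against 12.3 with vehicle. It was 15.2-fold above vehicle with TGZ (11.5 to 20.1) and 2.27-fold below it with RGZ, a log2 difference of -1.18. Sqstm1, the receptor known as p62, had 215, 206, 103 and 158 in the same order of groups, against 107 with vehicle, 2.01-fold higher with TGZ (1.53 to 2.66). Stbd1, a glycogen receptor, was 2.92-fold lower with TGZ (2.21 to 3.85).

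Of 35 other lysosomal hydrolases, 2 were higher and 2 lower with TGZ. Lgmn, an asparaginyl endopeptidase that processes cathepsins, was 3.14-fold higher (2.38 to 4.14) and the beta-glucuronidase Gusb 2.03-fold, while Acp2 and Lipa, an acid phosphatase and the acid lipase, were 2.64-fold and 2.24-fold lower. Of 17 other lysosomal membrane proteins, Cd63 and Cd68 were 3.97-fold (3.01 to 5.24) and 2.90-fold (2.20 to 3.83) higher with TGZ and none was lower. Cd68 is also among the macrophage markers above, whose median log2 difference with TGZ was -0.38. The 16 subunits of the vacuolar ATPase, the pump that acidifies lysosomes, had a median log2 difference of 0.40 with TGZ and 1 call, Atp6v0d2 at 2.53-fold (1.82 to 3.51). With BSO plus TGZ the calls in these 3 lists were for Lgmn, Cd63 and Cd68, and with RGZ or BSO plus RGZ there was none.

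Among the 24 measured regulators of mTORC1, AMPK and the Rag GTPases, Ddit4, an inhibitor of mTORC1, had relative signals of 92.9 with TGZ, 60.7 with BSO plus TGZ, 5.06 with RGZ and 6.05 with BSO plus RGZ, against 5.60 with vehicle. It was 16.6-fold above vehicle with TGZ (12.6 to 21.9). Fnip1 and Fnip2, partners of folliculin, were 2.81-fold and 2.13-fold higher, and Sesn3 and Deptor, also inhibitors of mTORC1 signalling, were 2.39-fold and 2.14-fold lower. With BSO plus TGZ, Ddit4 and Fnip1 were called higher and Sesn3 and Deptor lower, and with RGZ or BSO plus RGZ none of the 24 was called. Of 7 other transcription factors of autophagy genes, Atf4 and Foxo1 were 2.80-fold (2.12 to 3.70) and 2.39-fold (1.81 to 3.15) higher with TGZ, and both were also called with BSO plus TGZ. With RGZ the 1 factor called was the stress factor Ddit3, 2.18-fold higher (1.64 to 2.89). On the array with BSO plus RGZ the calls were for Mitf, a relative of Tfeb, at 2.52-fold (1.91 to 3.33) and again for Ddit3 at 3.21-fold (2.42 to 4.26). Counts in these lists stand beside the background of 10.1% of genes higher and 9.48% lower with TGZ. The shares higher and lower were 8.31% and 5.89% with BSO plus TGZ and 1.65% and 1.66% with RGZ. With BSO plus RGZ they were 3.05% and 3.78%.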

How the data were processed

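Pooled liver RNA, labelled in 1 colour, was measured on Agilent mouse arrays, per the labels' protocols. The deposited scanner files give, per the file headers, a processed intensity after background subtraction (software Feature Extraction, version 12.0.3.1) and mm9 probe positions. A deposited log2 table of the same arrays differed from the log2 intensity by 1 constant per array, whose origin stays unknown, and was an alternative. Signals (59305 spots, 56605 probes) were averaged over spots of a probe after leaving out spots with outlier flags, scaled to each array's 75th percentile and put on the log2 scale. Where a gene had several probes, the brightest on average stood for it. Differences were formed for genes well above background on at least 1 array of a pair, with the detection floor of the other array as a bound where it was dim there. Intervals used the error model of Feature Extraction and a multiplier of 1.96. The number of arrays, 1 per group, limits the precision, and all 5 were on 1 slide. Calls used 2-fold and, as an alternative, 1.5-fold. Python 3.11.15, numpy 2.4.6, pandas 2.3.3 and limma 3.58.1 (normexp, offset 50) were used, and the steps were tested on simulated data. Every member was described, members past 2-fold on every array, and up to 4 genes of each other list farthest from 0 with TGZ or BSO plus RGZ, with any other gene called named beside its count after its value was seen. Members and lists were chosen with earlier results of these data known. Of 218 genes on the lists, all 218 were on the array, 4 under a synonym. The exon or UTR of a probe was not analysed here.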

Additional observations from a re-analysis of the deposited data

How the results depend on the processing

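Of 20 values for members called in a comparison, 160 recomputed values gave no reversal, 15 moved beyond the modelled measurement error and 14 were under 2-fold. Many of the 160 could hardly move. Every member was well above background on all 5 arrays, so the settings that only change the filter or flags leave its value as it was. The deposited table differs by 1 constant per array, which the scaling takes out. With the spike-in scaling the median log2 difference of the members was -0.26 for TGZ against vehicle, -0.076 for BSO plus TGZ against vehicle, 0.17 for RGZ against vehicle, 0.29 for BSO plus RGZ against vehicle, 0.19 for BSO plus TGZ against TGZ, -0.47 for TGZ against RGZ and -0.32 for BSO plus TGZ against BSO plus RGZ. The calls were then 3 higher and 5 lower for TGZ against vehicle, 2 higher for BSO plus TGZ against vehicle, 0 higher and 7 lower for TGZ against RGZ, and 0 higher and 3 lower for BSO plus TGZ against BSO plus RGZ. Scaling to the median gave medians of 0.26 for BSO plus RGZ against vehicle and -0.16 for BSO plus TGZ against BSO plus RGZ, with 0 members higher in the last. The split of all genes at 2-fold with that scaling was 3.98% higher and 2.93% lower for BSO plus RGZ against vehicle, 6.41% and 7.75% for BSO plus TGZ against BSO plus RGZ, 1.23% and 0.690% for BSO plus TGZ against TGZ, and 0.724% and 0.475% for BSO plus RGZ against RGZ; with the spike-in scaling it was 3.32% and 0.197% for BSO plus TGZ against TGZ. Normexp background correction gave a median of 0.11 for TGZ against vehicle and 1 member lower for TGZ against RGZ. It lowered the all-gene shares called higher and lower to 5.15% and 4.25% for TGZ, 4.14% and 2.28% for BSO plus TGZ, 0.632% and 0.417% for RGZ and 1.32% and 1.17% for BSO plus RGZ, each against vehicle, and to 4.38% and 3.90% for TGZ against RGZ, 3.45% and 2.07% for BSO plus TGZ against BSO plus RGZ, 0.235% and 0.0815% for BSO plus TGZ against TGZ and 0.103% and 0.0988% for BSO plus RGZ against RGZ. The mean over a gene's probes gave medians of 0.33 for TGZ and 0.26 for BSO plus TGZ against vehicle, 1 member higher for BSO plus RGZ against vehicle (beside 3.02% of all genes), and 3 higher and 1 lower for BSO plus TGZ against BSO plus RGZ (beside 8.39% and 5.09%). It put Ctsl at 2.72 with TGZ by taking a probe not well above background with vehicle at its measured signal, without a floor. At 1.5-fold, 8 members were higher and 5 lower for TGZ against vehicle, 4 lower for BSO plus TGZ, 3 higher for RGZ and 5 higher for BSO plus RGZ, each against vehicle, 1 higher for BSO plus RGZ against RGZ, 3 lower for TGZ against RGZ, and 4 higher and 5 lower for BSO plus TGZ against BSO plus RGZ. The members' calls and medians stayed within 1.5 times or within the modelled measurement error with no filter on dim probes and with detection on all 5 arrays. The same held with the submitters' flags and the deposited table. These settings could hardly move the members' values and so do not test them. With no filter the median of all genes was 0.23 for TGZ against vehicle and 0.34 for TGZ against RGZ, above the members' 0.20 and 0.08, and the all-gene shares were 3.18% and 4.44% for RGZ against vehicle, 3.73% and 3.42% for BSO plus TGZ against TGZ and 3.05% and 3.67% for BSO plus RGZ against RGZ. The cause of these shifts was not tested except where stated. No paired analysis was possible because each group has 1 array. Differences under about 0.40 on the log2 scale lay inside the modelled spot error, and larger ones have no replicate spread to be set against.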
